A study of Mus musculus with 9 samples.

Results

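The IFIT family (interferon-induced proteins with tetratricopeptide repeats) was read in cultured mouse cardiac fibroblasts carrying 1 of 3 adenoviruses. Its members were taken by gene symbol: Ifit1, Ifit2, Ifit3, Ifit3b and Ifit1bl1, 5 of the 56953 genes in the deposited expression table. The members were selected on their changes of TPM against Ad-GFP with earlier results of these libraries known, so its levels and changes are a description of these libraries and not an independent test. The cells were primary fibroblasts isolated by enzymatic digestion from hearts of adult male C57BL/6N mice of wildtype genotype, with cardiomyocytes settled out. Each group was infected at 1000000 pfu/ml and harvested at 72 h, with GFP adenovirus (Ad-GFP), an adenovirus carrying JP2, the junctophilin-2 cDNA (Ad-JP2), or an adenovirus carrying a JP2 shRNA (Ad-shJP2). Every group therefore carried an adenovirus, and no uninfected culture is among the 9 libraries, 3 per group. The labels do not say whether the replicates came from separate hearts or cultures, so p-values measure the spread between these libraries, which may be technical.

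IFIT proteins are cytosolic RNA-binding proteins whose genes are switched on by type I interferon and by sensors of viral nucleic acid. Ifit1 binds RNA whose cap lacks 2'-O-methylation and blocks its translation; in human cells IFIT2 and IFIT3 form complexes with it, and IFIT proteins also contact the translation initiation factor eIF3. Interferon acts through its receptors and the kinases Jak1 and Tyk2 on STAT factors, which with Irf9 form the complex ISGF3; this complex binds the interferon-stimulated response element (ISRE) upstream of target genes. Irf1, Irf3 and Irf7 bind closely related sites, and Ifit genes can also be switched on by Irf3 without interferon.

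The promoter segments with ISRE letters are shown first, and a link between these letters and the direction of change was not tested. Sequences are from RefSeq on GRCm38.p6 and were cut from windows running from 250 bases before to 50 bases after each annotated start; all 5 members matched, with 2 windows each for Ifit2 and Ifit1bl1. The motif searched, the core of the ISRE, was GAAA, any 2 bases and GAAA again, on both strands. The segments are written in the direction of the gene, in which every match reads as TTTC, any 2 bases and TTTC, and capitals mark the matches.
Ifit1, chr19:34640770-34640828, plus strand: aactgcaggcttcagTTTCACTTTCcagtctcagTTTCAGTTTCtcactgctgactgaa
Ifit3, chr19:34583358-34583431, plus strand: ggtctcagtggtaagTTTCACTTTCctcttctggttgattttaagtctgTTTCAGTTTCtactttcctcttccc
Ifit3b, chr19:34607754-34607827, plus strand: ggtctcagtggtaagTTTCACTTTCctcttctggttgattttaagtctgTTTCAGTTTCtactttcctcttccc
Ifit1bl1, chr19:34602048-34602087, minus strand: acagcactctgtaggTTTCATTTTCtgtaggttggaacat

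The Ifit1 window held 2 matches, beginning 104 and 85 bases before the start. The Ifit3 window also held 2, at 156 and 122 bases, and the same 74-base segment stood in the Ifit3b window at 188 and 154 bases. Each Ifit1bl1 window held 1 match, at 104 bases in the segment printed and at 23 bases in the other. Neither Ifit2 window held the motif on either strand, which says only that these letters are not in those windows. Over all RefSeq windows of this length, 3.44% of 32851 held a match, as did 3.75% of the 9432 tested genes with a window. A window with 2 or more matches was found for 72 of 27025 genes (0.266%). Among the listed other interferon-stimulated genes, 13 of 29 with a window held a match (44.8%). The Ifit1 matches also lay in a window of Ifit1bl2, a related gene outside the chosen members that is read from the opposite strand.

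Values are TPM, a message level scaled for transcript length and to a common total in every library. A gene was tested when it reached 1 TPM in at least 3 libraries, which left 14215 genes, and was called when limma on log2(TPM + 1) gave an adjusted p under 0.05 over all of them. Approximate depths, worked out from the spacing of the low values, were 40.6 to 45.7 M reads in Ad-GFP, 36.9 to 41.3 M in Ad-JP2 and 21.3 to 33.2 M in Ad-shJP2, so the hairpin libraries were the shallowest; 3 reads on 1000 bases correspond to 0.0873 to 0.176 TPM. The median change of all tested genes was 0.01 on the log2 scale for Ad-JP2 against Ad-GFP, -0.11 for Ad-shJP2 against Ad-GFP and 0.10 for Ad-JP2 against Ad-shJP2. Of all calls, 1902 were higher and 233 lower in Ad-JP2, and 3093 higher and 5353 lower in Ad-shJP2, each against Ad-GFP; quantile normalization changed these splits to 1462 and 748, and to 4233 and 3849, and median-of-ratios scaling to 1773 and 497, and to 4149 and 4341. Between Ad-JP2 and Ad-shJP2 the split of 5731 higher and 3421 lower became 4026 and 5570 with quantile normalization and 4680 and 4709 with median-of-ratios scaling. Jph2, the targeted gene, had a mean of 129 TPM in Ad-GFP, 688 TPM in Ad-JP2 and 120 TPM in Ad-shJP2, where its change of -0.11 was not called (adjusted p = 0.072, limma). A lower Jph2 message was thus not called in the libraries labelled Ad-shJP2, and directions drawn from them below are those of libraries with that label.

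All 12 fibroblast markers passed the filter. Their summed level was 14355 to 14485 TPM in Ad-GFP, 14218 to 15231 TPM in Ad-JP2 and 9617 to 9906 TPM in Ad-shJP2. In Ad-JP2 5 were called higher (41.7%, beside 13.4% of all tested genes) and 0 lower. In Ad-shJP2 11 were called lower (91.7%, beside 37.7%) and 1 higher (8.33%). Corrected for GC content and transcript length, 3 were higher and 3 lower in Ad-JP2, and 11 lower in Ad-shJP2. Of other markers tested, 3 of 4 for pericytes and smooth muscle were called lower in Ad-shJP2 (75%) and 1 higher. For epicardium and mesothelium it was 5 of 6 (83.3%) and 1. Endothelial markers had 2 of 8 lower (25%) and cardiomyocyte markers 2 of 2. Of macrophage and leukocyte markers, 17 were listed and 13 tested. The 17 listed summed to 3165 to 3198 TPM in Ad-GFP, 2913 to 2960 TPM in Ad-JP2 and 3666 to 3717 TPM in Ad-shJP2. Of the 13 tested, 2 were called higher (15.4%, near the 13.4% of all tested genes) and 3 lower (23.1%, beside 1.64%) in Ad-JP2. In Ad-shJP2 8 were called higher (61.5%, beside 21.8%) and 4 lower (30.8%, beside 37.7%). After a correction for GC content and transcript length the balance of these calls turned, to 6 higher and 1 lower in Ad-JP2, and to 3 higher and 5 lower in Ad-shJP2. Cd3e was listed at 0 in all libraries. Most of that sum was Lyz2, a lysozyme of myeloid cells, at 1730 TPM in Ad-GFP, 1556 TPM in Ad-JP2 and 2023 TPM in Ad-shJP2. Macrophages express IFIT genes too. The marker sum was lower in Ad-JP2 and higher in Ad-shJP2, the direction of Ifit3 and Ifit3b in Ad-shJP2 and the opposite of Ifit2 in both; its part in the values below was not tested. In bulk RNA, more cells of a type and more message per cell cannot be told apart.

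The 5 members summed to 36.3 ± 0.497 TPM (SD, n = 3) in Ad-GFP, 46.8 ± 3.58 TPM in Ad-JP2 and 158 ± 2.49 TPM in Ad-shJP2. Ifit3 made up most of the family message in every library, and its share was 78.6 to 81.8% in Ad-GFP, 69.8 to 72.0% in Ad-JP2 and 84.7 to 87.7% in Ad-shJP2. The share of Ifit2 was 4.69 to 6.38% in Ad-GFP, 12.8 to 13.7% in Ad-JP2 and 0.444 to 0.925% in Ad-shJP2. The family total was thus 4.35 times the Ad-GFP level with the hairpin virus and 1.29 times with the junctophilin-2 virus, and its make-up differed between the viruses as well.

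**Figure D1:**
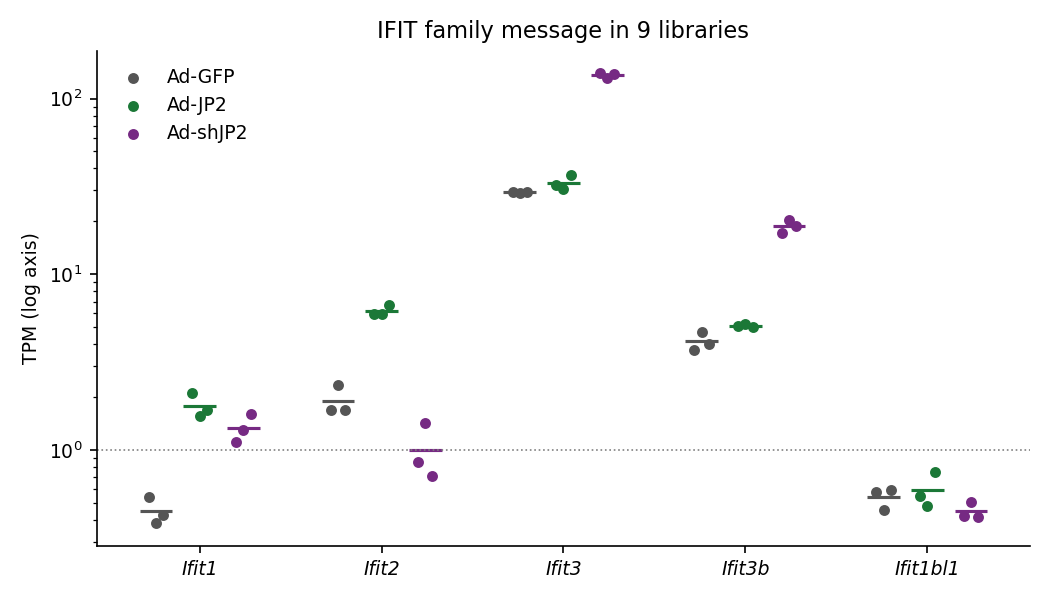
Level of each IFIT gene in the 9 libraries, in TPM on a log axis; points are libraries, short bars are group means and the dotted line is the level of 1 TPM used in the filter. Ifit2 stands highest in Ad-JP2, Ifit3 and Ifit3b stand highest in Ad-shJP2, and Ifit1 stands above Ad-GFP in both.

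In Ad-GFP the order of levels was Ifit3, Ifit3b, Ifit2, then Ifit1bl1 and Ifit1, whose values overlapped. In Ad-JP2 Ifit2 stood above Ifit3b, at 5.91 to 6.73 TPM against 5.03 to 5.20 TPM. In Ad-shJP2 the Ifit2 mean lay below that of Ifit1, and their values overlapped.

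Ifit2, which binds AU-rich RNA and has been tied to apoptosis as well as to antiviral defence, moved in opposite directions with the viruses. Its level was 1.69, 2.35 and 1.70 TPM in Ad-GFP replicates 1 to 3, 5.91, 5.98 and 6.73 TPM in Ad-JP2, and 0.858, 1.44 and 0.710 TPM in Ad-shJP2. The 3 groups did not overlap, with Ad-JP2 on top and Ad-shJP2 at the bottom. Against Ad-GFP the mean was 3.25-fold higher in Ad-JP2, a log2 change of 1.31 ± 0.15 (SE). It was 1.91-fold lower in Ad-shJP2, where the log2 change was -0.55 ± 0.15 (SE). Of all tested genes, 106 had a larger rise than Ifit2 in Ad-JP2, whereas 2854 had a larger fall in Ad-shJP2. These levels correspond to about 128 to 169 reads in Ad-GFP, 377 to 485 in Ad-JP2 and 34 to 90 in Ad-shJP2. The lower call in Ad-shJP2 was lost when changes were corrected for GC content and transcript length, which left -0.21 (adjusted p = 0.273, limma), and with quantile normalization, which left -0.33. Relative to the median of all genes the Ad-shJP2 change was -0.44 as reported, -0.35 with quantile normalization and -0.06 after the GC and length correction.

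Ifit1, the cap sensor of the family, was higher with both viruses. It stood at 0.540, 0.384 and 0.427 TPM in Ad-GFP, at 2.10, 1.56 and 1.70 TPM in Ad-JP2, and at 1.11, 1.30 and 1.60 TPM in Ad-shJP2. All 6 libraries of the junctophilin-2 and hairpin viruses lay above the 3 of Ad-GFP, and the former 2 groups overlapped each other. The mean was 3.97-fold higher in Ad-JP2 and 2.97-fold higher in Ad-shJP2, and the log2 changes on the TPM + 1 scale were 0.94 ± 0.12 and 0.69 ± 0.12 (SE). Since Ifit1 was below 1 TPM in every Ad-GFP library, it passed the filter only through the groups in which it was higher, and the pseudocount of 1 shrinks its change: with 0.1 in its place the values were 1.78 and 1.38. About 21 to 33 reads lay behind each Ad-GFP value, 74 to 108 behind Ad-JP2 and 33 to 73 behind Ad-shJP2. The difference between Ad-JP2 and Ad-shJP2, 0.25 ± 0.12 (SE), was not called; it was -0.33 after the GC and length correction, which was called (adjusted p = 0.0405, limma), and -0.10 with quantile normalization, so which virus gave more Ifit1 message depended on the processing.

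Ifit3, whose human counterpart is known to stabilise IFIT1, was the most abundant member and was higher with the hairpin virus. Its level was 29.4, 29.0 and 29.4 TPM in Ad-GFP, 32.4, 30.5 and 36.5 TPM in Ad-JP2, and 139, 131 and 138 TPM in Ad-shJP2. The hairpin libraries stood far above the rest, and the Ad-JP2 libraries lay just above the narrow range of Ad-GFP. In Ad-shJP2 the mean was 4.66-fold higher than in Ad-GFP, a log2 change of 2.18 ± 0.06 (SE), and 16 tested genes had a larger rise. In Ad-JP2 it was 1.13-fold the Ad-GFP mean, a log2 change of 0.17 ± 0.06 (SE) that was not called. Leaving out Ad-JP2 replicate 2 gave 0.23, which was called (adjusted p = 0.0347, limma).

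Ifit3b is a close copy of Ifit3, and it followed the same course. It stood at 3.73, 4.71 and 4.02 TPM in Ad-GFP, at 5.09, 5.20 and 5.03 TPM in Ad-JP2, and at 17.1, 20.5 and 18.9 TPM in Ad-shJP2. The Ad-shJP2 mean was 4.53-fold the Ad-GFP mean, with a log2 change of 1.94 ± 0.09 (SE) and 29 tested genes with a larger rise. In Ad-JP2 it was 1.23-fold, a log2 change of 0.25 ± 0.09 (SE) that was not called; without Ad-GFP replicate 2 it was 0.32 and called (adjusted p = 0.0489, limma). The coding sequences of Ifit3 and Ifit3b in GENCODE M21 were identical at 1198 of 1209 bases (99.1%), and 68.5% of their 50-base windows were shared, so reads may have been split between them and their separate levels are uncertain. Their sum avoids that split: it was 33.4 ± 0.290 TPM (SD, n = 3) in Ad-GFP, 38.2 ± 3.01 TPM in Ad-JP2 and 155 ± 2.84 TPM in Ad-shJP2, or 4.65 times the Ad-GFP level with the hairpin virus. The other pairs of members were far less alike: Ifit2 and Ifit3 agreed at 66.7% of aligned coding bases and Ifit1 and Ifit3 at 61.0%.

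Ifit1bl1, an Ifit1-like gene, stayed below 1 TPM in all 9 libraries and was not tested. Its level was 0.577, 0.455 and 0.593 TPM in Ad-GFP, 0.549, 0.484 and 0.751 TPM in Ad-JP2, and 0.422, 0.507 and 0.416 TPM in Ad-shJP2. The 3 groups overlapped, at about 10 to 31 reads a library. With the filter lifted its log2 change was 0.05 in Ad-JP2 (adjusted p = 0.855, limma) and -0.09 in Ad-shJP2 (adjusted p = 0.466). Its coding sequence matched that of Ifit1 at 76.5% of aligned bases, so it is no near-identical copy of Ifit1, and its level did not separate the groups.

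Of the 4 members tested, 2 were called higher in Ad-JP2 against Ad-GFP (Ifit1 and Ifit2) and 0 lower, where 15.0% of all tested genes were called, 13.4% of them higher and 1.64% lower as shares of tested genes. In Ad-shJP2 against Ad-GFP all 4 were called, 3 higher (Ifit1, Ifit3 and Ifit3b) and 1 lower (Ifit2), where 59.4% of tested genes were called, 21.8% higher and 37.7% lower. At an unadjusted p under 0.05, limma gave 4 members higher and 0 lower in Ad-JP2. The share of all tested genes at that threshold was not counted, so these 2 counts have no background beside them. The groups did not overlap for any of the 4 in either comparison. This held for 32.2% of tested genes in Ad-JP2 and 65.3% in Ad-shJP2. Ifit1 adds little to these counts, since it passed the filter only through the groups in which it was higher. Both comparisons use the same Ad-GFP libraries. Set directly against each other, Ad-JP2 and Ad-shJP2 differed in 3 of the 4 members by the call and by groups that did not overlap; 64.4% of all tested genes were called, 40.3% higher and 24.1% lower in Ad-JP2, and 67.1% did not overlap. Ifit2 was 6.20-fold higher in Ad-JP2, a log2 difference of 1.86 ± 0.15 (SE). Ifit3 was 4.12-fold lower there, with a log2 difference of -2.01 ± 0.06 (SE), and Ifit3b 3.68-fold lower, with -1.69 ± 0.09 (SE).

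**Figure D2:**
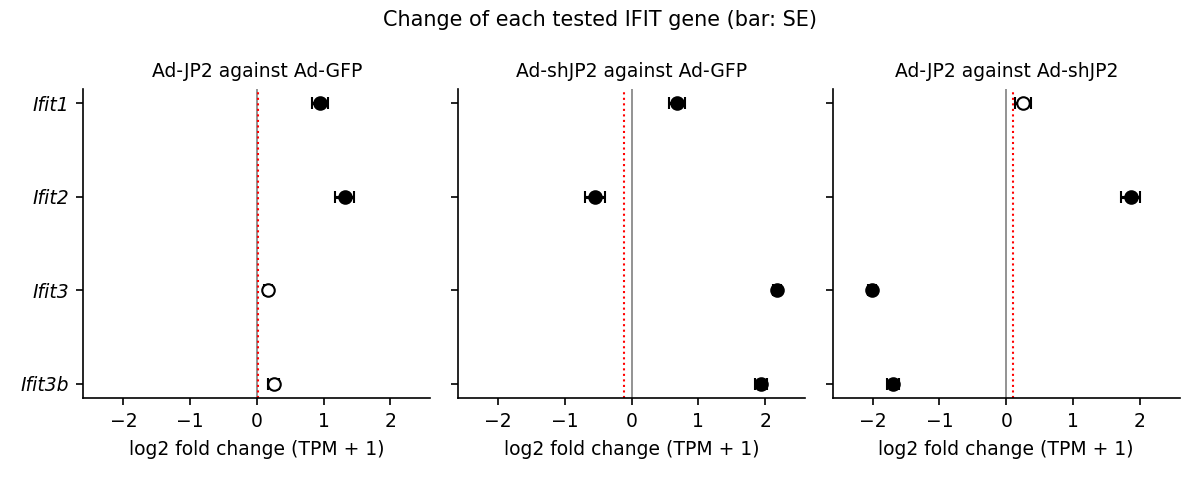
Log2 change of the 4 tested IFIT genes on the TPM + 1 scale in the 3 comparisons, with SE bars; filled points were called, open points were not, and the red dotted line is the median of all tested genes. Ifit2 lies right of 0 in Ad-JP2 and left of 0 in Ad-shJP2, each against Ad-GFP, and Ifit3 and Ifit3b lie near 2 in Ad-shJP2.

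The split between members was also read as a ratio within each library. A common scaling of a library leaves such a ratio as it is on plain TPM. With TPM + 1 this holds only in part, and least where Ifit1 or Ifit2 lay near or below 1 TPM. On plain TPM, Ifit3 exceeded Ifit2 by 12.3 to 17.4 times in Ad-GFP, by 5.10 to 5.48 times in Ad-JP2 and by 91.6 to 195 times in Ad-shJP2. The log2 ratio of Ifit2 to Ifit3 (TPM + 1) was -3.50, -3.16 and -3.50 in Ad-GFP, -2.27, -2.17 and -2.28 in Ad-JP2; for Ad-shJP2 it was -6.24, -5.77 and -6.35. The 3 groups were apart, with differences of 1.14 between Ad-JP2 and Ad-GFP, -2.73 between Ad-shJP2 and Ad-GFP and 3.88 between Ad-JP2 and Ad-shJP2. A two-sided exact permutation test of 3 against 3 libraries cannot go below p = 0.1, and it gave 0.1 for each of these. The log2 ratio of Ifit2 to Ifit1 was 0.80, 1.28 and 0.92 in Ad-GFP, 1.16, 1.44 and 1.52 in Ad-JP2; for Ad-shJP2 it was -0.18, 0.08 and -0.61. Here Ad-JP2 and Ad-GFP overlapped and only Ad-shJP2 stood below both. The Ad-JP2 difference was 0.37 (exact permutation p = 0.2) and turned to -0.12 with a pseudocount of 0.1. Ifit3b to Ifit3 ranged from -2.96 to -2.34 over all 9 libraries.

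**Figure D3:**
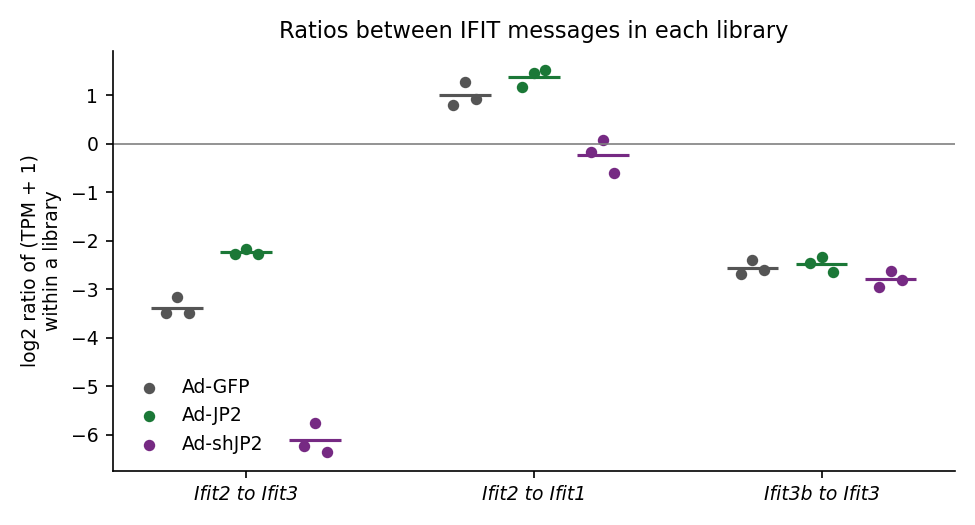
Log2 ratio between pairs of IFIT messages, each as TPM + 1, in every library; points are libraries and bars are group means. The ratio of Ifit2 to Ifit3 lies highest in Ad-JP2 and lowest in Ad-shJP2, and the ratio of Ifit3b to Ifit3 lies between -2.96 and -2.34.

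The members also differ in base composition, which bears on the correction above. GC content of the transcripts was 43.3% for Ifit1, 46.2% for Ifit2, 47.5% for Ifit3, 45.8% for Ifit3b and 42.9% for Ifit1bl1, all under the median of 50.9% of tested genes. With that correction the Ad-JP2 changes were 0.66 for Ifit1, 1.09 for Ifit2, 0.17 for Ifit3 and 0.14 for Ifit3b. The Ad-shJP2 changes were then 0.99, -0.21, 2.21 and 2.07 in the same order. The Ad-shJP2 values of Ifit3 and Ifit3b were thus close to those reported, and that of Ifit2 was nearer to 0.

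**Figure D4:**
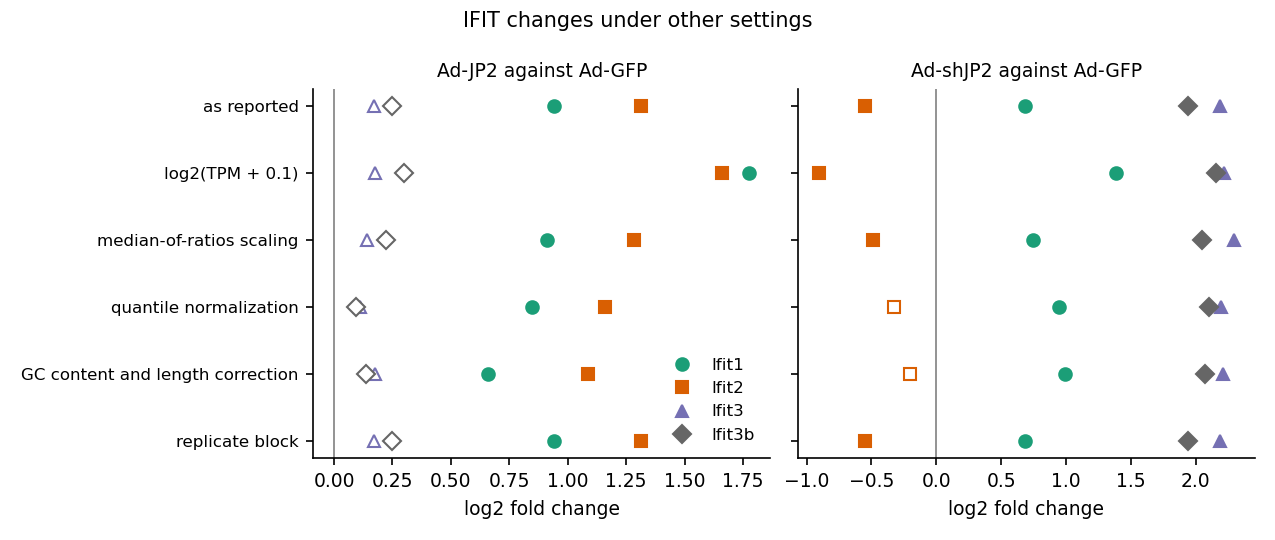
Log2 change of the 4 tested IFIT genes against Ad-GFP as reported and under 5 other settings; filled symbols were called and open symbols were not. In Ad-shJP2 the Ifit2 symbol is open with quantile normalization and with the GC content and length correction, and Ifit3 and Ifit3b stay near 2 in each setting shown.

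Other genes of the interferon pathway were described with 96 listed genes, chosen with earlier results known, of which 79 were tested. Not all act above the IFIT genes: 35 of the 79 were other interferon-stimulated genes, which are targets too. These 35 gave 16 of the higher calls that follow in Ad-JP2 and 29 of those in Ad-shJP2. In Ad-JP2 31 were called higher (39.2%, beside 13.4% of all tested genes) and 0 lower, with a median log2 change of 0.18 against 0.01 for all tested genes. At an unadjusted p under 0.05 the same limma fit gave 41 higher and 1 lower, the lower one being Ifi27. All tested genes were not counted at that threshold. In Ad-shJP2 49 were called higher (62.0%, beside 21.8%) and 12 lower (15.2%, beside 37.7%), with a median of 0.50 against -0.11. Among 10 listed interferon ligands 9 were listed at 0 in all libraries. The remaining one, Ifnb1, was listed at 0 in 8 libraries and at 0.463 TPM in Ad-shJP2 replicate 3. Of the 5 ligand and receptor genes tested, all of them receptor chains, 0 were called in Ad-JP2. There 0 also passed an unadjusted p under 0.05 in limma. In Ad-shJP2 Ifngr1 was called higher (20%, near the 21.8% of all tested genes), and Ifnar1, Ifngr2 and Il10rb lower (60%, beside 37.7%). Median-of-ratios scaling left 1 higher and 1 lower in Ad-shJP2, and the GC and length correction gave 1 higher and 3 lower. Ifnar1, a chain of the type I interferon receptor, had means of 24.0, 24.1 and 15.7 TPM in Ad-GFP, Ad-JP2 and Ad-shJP2, and its Ad-shJP2 change was -0.58 (adjusted p = 6.7e-06, limma).

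Of 13 tested JAK, STAT and IRF genes, 6 were called higher (46.2%, beside 13.4% of all tested genes) and 0 lower in Ad-JP2. In Ad-shJP2 8 were called higher (61.5%, beside 21.8%) and 4 lower (30.8%, beside 37.7%). Median-of-ratios scaling gave 4 higher and 0 lower in Ad-JP2, and 8 higher and 3 lower in Ad-shJP2. Stat2 and Irf9 were higher with both viruses. Stat2 was at 7.48 TPM in Ad-GFP, 8.92 TPM in Ad-JP2 and 30.7 TPM in Ad-shJP2, with log2 changes of 0.22 and 1.90. Irf9 was at 15.0, 17.4 and 33.2 TPM in the same order, with changes of 0.20 and 1.10. Irf7, an inducible factor that drives interferon genes, was at 8.57, 7.95 and 8.93 TPM in Ad-GFP, 12.5, 13.9 and 11.4 TPM in Ad-JP2 and 68.3, 68.3 and 66.3 TPM in Ad-shJP2, with changes of 0.52 and 2.86. Of the kinases, Jak1 changed by 0.34 in Ad-JP2 but by -1.36 in Ad-shJP2. Jak2 changed by 1.30 and -0.98, the latter being -0.52 after the GC and length correction. Tyk2 changed by -0.06 and 0.09 and was called in neither. Jak1 and Jak2 thus had the directions of Ifit2, and Stat2 and Irf7 had their larger change where Ifit3 had it. How many of all tested genes share these patterns was not counted, and a link to the members was not tested.

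Among 14 tested nucleic acid sensors and adaptors, 7 were called higher (50%, beside 13.4% of all tested genes) and 0 lower in Ad-JP2. In Ad-shJP2 5 were called higher (35.7%, beside 21.8%) and 4 lower (28.6%, beside 37.7%). Ifih1, the sensor of long double-stranded RNA also called MDA5, was at 1.12, 3.46 and 2.07 TPM in Ad-GFP, Ad-JP2 and Ad-shJP2, with log2 changes of 1.08 and 0.55, and so was called higher with both viruses, as Ifit1 was. Rigi, a sensor of RNA with a 5' triphosphate, was higher in Ad-JP2 by 0.57, and its change of -0.08 in Ad-shJP2 was not called. The GC and length correction turned the latter to 0.30, which was called (adjusted p = 0.000397, limma), beside 0.31 in Ad-JP2. Zbp1, a sensor of Z-form nucleic acid, was higher with both, by 0.82 and 2.54. Tbk1, the kinase that activates Irf3, changed by 0.66 in Ad-JP2 and -1.33 in Ad-shJP2. Eif2ak2, the kinase PKR, changed by 0.79 and -0.53, and Aim2, a DNA sensor, by 0.66 and -0.72. These last 3 were called in the directions of Ifit2 in both comparisons, with no count over all tested genes to set beside them. Eif2ak2 lost its Ad-shJP2 call after the GC and length correction (-0.30, adjusted p = 0.054, limma).

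Of 35 tested other interferon-stimulated genes, 16 were called higher (45.7%, beside 13.4% of all tested genes) and 0 lower in Ad-JP2. In Ad-shJP2 29 were called higher (82.9%, beside 21.8%) and 0 lower. Their median log2 change was 0.24 in Ad-JP2 and 1.22 in Ad-shJP2. The GC and length correction gave 19 higher and 0 lower for Ad-JP2, and 31 higher and 2 lower for Ad-shJP2. Isg15, a ubiquitin-like modifier, was at 35.6 TPM in Ad-GFP, 61.3 TPM in Ad-JP2 and 336 TPM in Ad-shJP2. Oasl1, a regulator of Irf7 translation, rose by 4.22 in Ad-shJP2, and its change of 0.01 in Ad-JP2 was not called. Trim30a, at 2.11, 4.91 and 1.99 TPM in Ad-GFP, Ad-JP2 and Ad-shJP2, rose by 0.94 in Ad-JP2, and its change of -0.05 in Ad-shJP2 was not called; after the correction it was called higher in both, at 0.53 and 0.43. Parp14 was higher with both viruses, by 0.74 and 0.32, or by 0.50 and 0.68 after the correction. At an unadjusted p under 0.05 limma gave 0 of these genes lower in Ad-shJP2, again with no count over all tested genes at that threshold. The 2 called lower there after the correction were Ifi27 (-0.23) and Ifitm2 (-0.27), named here after their values were seen.

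Of 12 negative regulators, 2 were called higher (16.7%, near the 13.4% of all tested genes) and 0 lower in Ad-JP2. In Ad-shJP2 6 were called higher (50%, beside 21.8%) and 1 lower (8.33%, beside 37.7%). Usp18, which removes Isg15 from proteins and blocks the type I receptor, was higher with both, by 0.53 and 2.98. Ptpn2, a phosphatase of JAK and STAT proteins, changed by 0.44 in Ad-JP2 and -1.11 in Ad-shJP2; the former was 0.19 after the correction and no longer called (adjusted p = 0.282, limma).

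**Figure D5:**
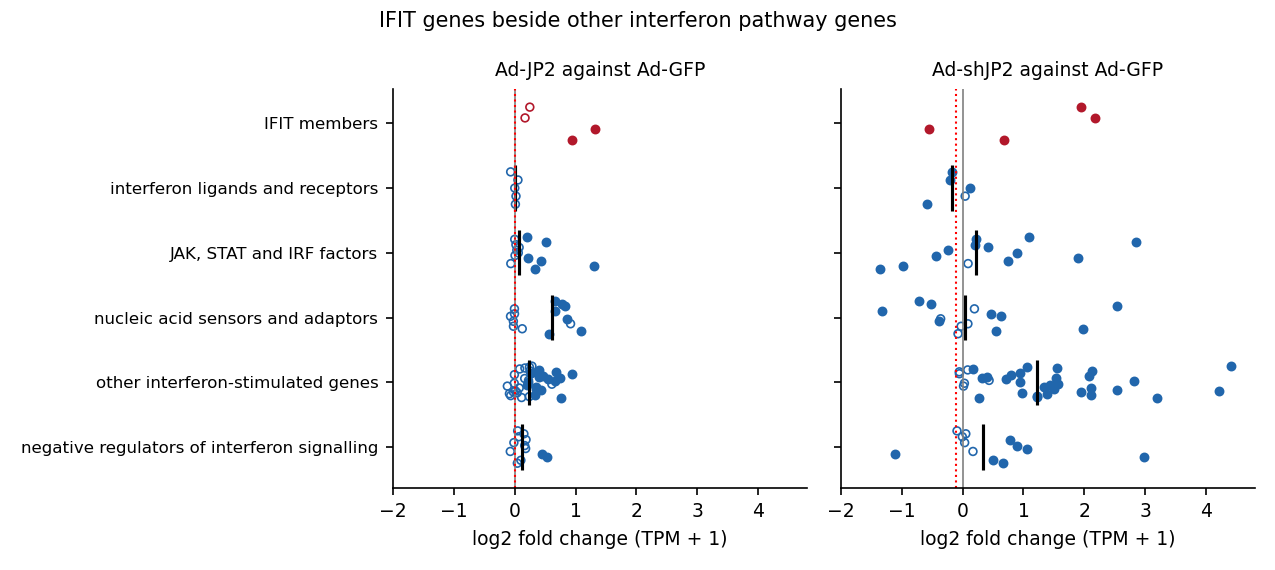
Log2 change of each tested gene of the IFIT family (red) and of 5 interferon pathway lists (blue) against Ad-GFP; filled points were called, open points were not, black bars are list medians and the red dotted line is the median of all tested genes. Other interferon-stimulated genes have medians of 0.24 (Ad-JP2) and 1.22 (Ad-shJP2), whereas the red point left of 0 in Ad-shJP2 is Ifit2.

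Genes for the known partners of IFIT proteins were listed as well. Of 14 eIF3 subunits, 4 were called higher (28.6%, beside 13.4% of all tested genes) and 0 lower in Ad-JP2. In Ad-shJP2 8 were called higher (57.1%, beside 21.8%) and 5 lower (35.7%, near the 37.7% of all tested genes). After the GC and length correction the counts were 7 higher and 1 lower in Ad-JP2, and 2 higher and 3 lower in Ad-shJP2. Eif3e, a subunit contacted by IFIT proteins, was at 87.1, 112 and 50.5 TPM in Ad-GFP, Ad-JP2 and Ad-shJP2; its Ad-JP2 change of 0.36 was called but fell to 0.02 after the correction (adjusted p = 0.81, limma). Eif3a was at 6.12, 15.3 and 3.29 TPM, and its Ad-shJP2 change of -0.72 became -0.21 (adjusted p = 0.14, limma). Eif3c, also a contact, was at 197, 196 and 214 TPM; it was not called in Ad-JP2 and was called higher in Ad-shJP2, by 0.12. Of 10 genes for cap enzymes and cap-binding proteins, 2 were called higher (20%, beside 13.4% of all tested genes) and 0 lower in Ad-JP2. In Ad-shJP2 4 were called higher (40%, beside 21.8%) and 5 lower (50%, beside 37.7%). Cmtr1, which adds the 2'-O-methyl group that Ifit1 reads as self, was at 89.7, 87.8 and 138 TPM, and its Ad-shJP2 change was 0.62, or 0.41 after the correction. Rnmt, which methylates the cap guanine, changed by -1.17 in Ad-shJP2. Of 10 genes for RNA decay and AU-rich element binding, 5 were called higher (50%, beside 13.4%) and 0 lower in Ad-JP2. In Ad-shJP2 4 were called higher (40%, beside 21.8%) and 6 lower (60%, beside 37.7%). Zfp36l1, which marks AU-rich messages for decay, changed by 0.43 in Ad-JP2 but by -2.05 in Ad-shJP2.

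The IFIT cluster on chromosome 19 runs Ifit2, Ifit3, Ifit1bl1, Ifit3b, Ifit1bl2 and Ifit1 in the RefSeq gene order, so Ifit2 and Ifit3 are next to each other. Ifit1bl2 was at 0.222, 0.268 and 0.147 TPM in Ad-GFP, Ad-JP2 and Ad-shJP2 and was not tested. On the side of Ifit2 the nearest tested genes were Lipa, Ch25h and Fas, and none was called in Ad-JP2. In Ad-shJP2 Ch25h, an interferon-inducible enzyme that makes 25-hydroxycholesterol, changed by 0.48, Lipa, the lysosomal acid lipase, by -0.30, and Fas, a death receptor, by -0.20, which was not called. The GC and length correction left 0.02 for Lipa in Ad-shJP2 and gave it a called change of -0.29 in Ad-JP2. On the side of Ifit1 were Pank1, Rpp30 and Ankrd1. Ankrd1, a stress-responsive ankyrin repeat protein of heart cells, changed by 0.29 in Ad-JP2 and -1.90 in Ad-shJP2. Rpp30, a subunit of RNase P, was called in neither, and Pank1, an enzyme of coenzyme A synthesis, changed by -0.34 in Ad-shJP2 (0.09 after the correction, not called) and was not called in Ad-JP2. Over these 6 neighbours the largest rise was 0.29 in Ad-JP2, where Ifit2 was at 1.31, and 0.48 in Ad-shJP2, where Ifit3 was at 2.18. Ankrd1, at -1.90 in Ad-shJP2, changed by more than these neighbour rises, in the other direction.

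The genes whose levels followed each member most closely were found among 9808 genes with a mean of at least 5 TPM, by Pearson correlation of log2(TPM + 1) over the 9 libraries. These libraries fall into 3 groups, so a high correlation mostly restates the order of group means. For Ifit2 they were Atp13a3 (r = 0.989), Nab1, a corepressor of EGR factors (0.988), Cfap36 (0.986), Prkaa1, a catalytic subunit of AMP kinase (0.986), and the RNA-binding protein gene Qki (0.985). For Ifit1 they were Cbll1 (0.963), Zfp503 (0.926), Sp100, an interferon-inducible nuclear body protein (0.917), Runx1 (0.904) and Hnrnpd, which binds AU-rich RNA (0.900). For Ifit3 they were Gemin5, Trp53, Sprr1a, Dusp5 and Ilf2, each at 0.998. For Ifit3b they were Ly6e, an interferon-inducible surface protein (0.997), Rbm38, Stat2, Slc35e4 and Prpf38a (each 0.995). Of these genes, Stat2 was the only one in the interferon lists.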

How the data were processed

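Poly(A) RNA was sequenced from 9 stranded libraries, 3 per virus. TPM values were deposited by the authors in 1 table; GRCm39, DRAGEN, DESeq2 and Salmon stand in the submitters' processing notes, without role or version. The table's effective transcript length column, of other unit, was deposited by the authors and used only to gauge depth. With it, 95.3% of low values of Ad-GFP replicate 3 lay within 0.1 of a whole read, and 40.4 to 59.6% in other libraries, so reads given are approximate.

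The members and gene lists were chosen with earlier results of these data known. Of 56953 genes, 29601 were listed at 0 throughout; for 148 repeated symbols the line with the highest mean was used. Genes with at least 1 TPM in at least 3 libraries (14215) entered limma 3.58.1 (R 4.3.3) on log2(TPM + 1): 3 group means, no covariate, mean-variance trend, Benjamini-Hochberg adjustment over all tested genes, calls under 0.05. A log2 change on this scale understates that of low genes. Simulated data took gene means and spreads from these libraries, with 200 of 14215 genes changed in the Ad-JP2 columns. Against Ad-GFP, 54% were recovered at a log2 change of 0.5 and 88% at 1. That share of changed genes is below the 15.0% called in Ad-JP2 and 59.4% in Ad-shJP2, so recovery in the data may differ. Ratios were tested by two-sided exact permutation. Named genes were the members, listed ligands, receptors, JAK, STAT, IRF and sensor genes, up to 3 called genes per direction with the largest change in each other list, the 5 genes most like each tested member, and up to 3 tested neighbours a side; Eif3c was added after its values were seen. No identical libraries were found, and correlations within groups were 0.989 to 0.993. GC content came from GENCODE M21, matched for 98.7% of tested genes, and gene length was deposited by the authors with the TPM values. Both were fitted with splines of 5 degrees of freedom in the correction. Alternatives were another pseudocount, other filters, 2 scalings, this correction, a replicate block, a fit of the compared groups alone, and leaving out each library. Promoter windows were RefSeq's on GRCm38.p6; no coordinates were converted between builds. Some listed genes are not reported here by name.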

Additional observations from a re-analysis of the deposited data

How the results depend on the processing

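The ratios have no call to lose, since their exact test cannot go below p = 0.1. With genes of at least 5 TPM in at least 3 libraries, Ifit1 was not tested and 1 member (Ifit2) was called in Ad-JP2 against Ad-GFP. The log2 ratio of Ifit2 to Ifit1 in Ad-JP2 against Ad-GFP turned to -0.12 with log2(TPM + 0.1). The Ifit1 difference of Ad-JP2 from Ad-shJP2 turned to -0.10 with quantile normalization and to -0.33 with the GC content and length correction, with or without the block; it was then called without the block, and 4 members differed between these viruses. The Ifit2 change in Ad-shJP2 lost its call at -0.33 with quantile normalization and at -0.21 with the GC content and length correction, with or without the block; the cause of these was not tested. Leaving out 1 library in turn gave 2 to 3 members called in Ad-JP2 (Ifit3 added at 0.23 without Ad-JP2 replicate 2, Ifit3b at 0.32 without Ad-GFP replicate 2), 4 in every case in Ad-shJP2, and an Ifit2 change in Ad-shJP2 of -0.70 to -0.44. Depth limits Ifit1, Ifit1bl1 and Ifit2 in Ad-shJP2, at about 10 to 90 reads in that group. Ifit1 had its fewest reads in Ad-GFP, at about 21 to 33.

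Replicate numbers match across groups in the labels. Deviations from group means of libraries of the same number correlated at -0.11 to 0.11 over 9 pairs. For libraries of other numbers the range was -0.20 to 0.16 over 18 pairs. No shared deviation was seen by number, but this cannot tell whether a number stands for a shared heart, culture or batch. With the replicate block, 1750 genes were called higher and 179 lower in Ad-JP2 against Ad-GFP, and 3015 and 5211 in Ad-shJP2; 2 and 4 members were called, and the Ifit2 changes were 1.31 and -0.55.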
